A study of Mus musculus with 4 samples.

Results

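The genes described here were 3 Gata genes, *Gata2*, *Gata3* and *Gata6*, and the 4 Eya genes, *Eya1*, *Eya2*, *Eya3* and *Eya4*. They were chosen by gene symbol, and all 7 were found among the 23997 genes of the deposited table. Expression was measured by RNA-Seq in 2 populations of cochlear hair cell (HC) progenitors from C57BL/6 mice at postnatal day 3. Lgr5+ progenitors were the EGFP+ cells sorted from Lgr5-EGFP-IRES-creERT2 mice, and Lgr6+ progenitors were the EGFP+ cells sorted from Lgr6-EGFP-IRES-CreERT2 mice, called Lgr5+ cells and Lgr6+ cells here. In both lines the reporter cassette is a knock-in at the gene whose activity it marks, so the sorted cells carry an altered copy of *Lgr5* or of *Lgr6*. The labels list 2 libraries for each population, and the replicates of a population were made from fractions of the same extracted RNA. The table holds 1 value per gene and population, in FPKM, a fragment count divided by transcript length and by the number of mapped fragments, in which the libraries are already combined. The spread between libraries is therefore not known, no difference given here has a test, and n cannot be counted behind a value. *Lgr5* itself had an FPKM of 9.65 in Lgr5+ cells and 25.0 in Lgr6+ cells, so its transcript was higher in the population labelled Lgr6+, whereas *Lgr6* had 2.06 and 2.90. The labels were used as given.

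Gata proteins are zinc finger transcription factors that bind DNA at sites built around the letters GATA. *Gata3* is needed for the growth of the otic vesicle and for the prosensory cells of the cochlea, and loss of a copy in humans causes a syndrome that includes deafness. *Gata2* acts in the morphogenesis of the vestibular part of the inner ear and in blood stem cells and mast cells, and *Gata6* acts in heart, endoderm and mesenchyme. Eya proteins are transcriptional coactivators with a phosphatase domain. They do not bind DNA themselves and are brought to their targets by Six-family homeodomain proteins, in a network with Dach and Pax proteins. *Eya1* is required for formation of the inner ear and is mutated in branchio-oto-renal syndrome, and *Eya4* is mutated in an inherited progressive hearing loss.

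A gene was kept when its FPKM was at least 1 in at least 1 population, which 13436 genes and 6 of the 7 members were. Changes are log2 differences of FPKM + 1, Lgr6+ minus Lgr5+. A negative change therefore marks a higher value in Lgr5+ cells, and the changes of low genes are understated by the added 1. The median log2 change over all kept genes was 0.03. Kept genes past a 1.5-fold difference on that scale were counted, without any test. Of the 6 kept members, 2 were at least 1.5-fold higher in Lgr5+ cells, *Gata2* and *Gata3*, 0 were that much higher in Lgr6+ cells, and 4 lay under the threshold, all of them Eya genes. As background, 23.3% of all kept genes passed 1.5-fold toward Lgr5+ cells, 28.5% toward Lgr6+ cells and 51.8% in either direction. The median log2 change of the 6 kept members was -0.46 as deposited, -0.27 with both populations scaled to the same FPKM sum and 0.26, in the opposite direction, with a scaling to epithelial genes. At 2-fold *Gata2* was the single member counted, while 11.7% of all kept genes passed toward Lgr5+ cells, 18.2% toward Lgr6+ cells and 29.9% in either direction.

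**Figure D1:**
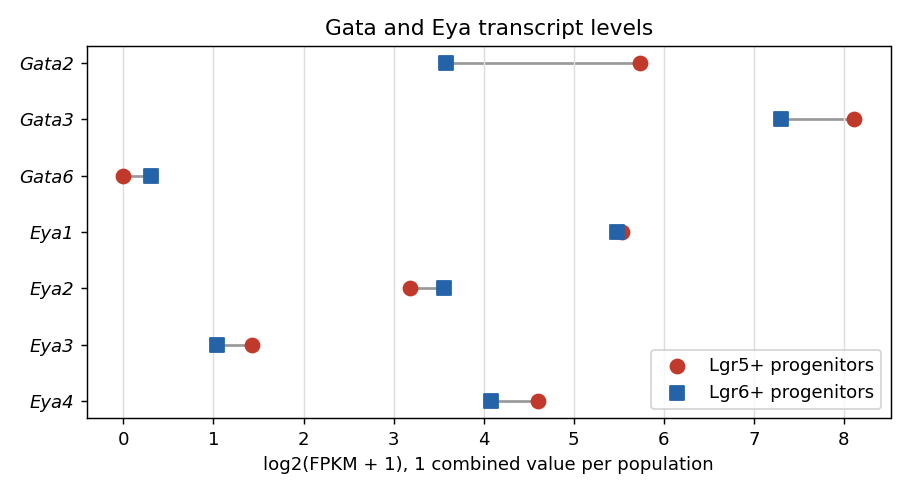
Levels of the 7 members as log2(FPKM + 1), with 1 combined value per population (circles, Lgr5+ cells; squares, Lgr6+ cells). *Gata2* has the widest gap, with an FPKM of 52.4 against 11.0, and the values of *Eya1*, 45.4 and 43.5, nearly coincide.

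*Gata3* was the most highly expressed member in both populations. Its FPKM was 275.5 in Lgr5+ cells and 157 in Lgr6+ cells, and it ranked 439 and 655 among the 13436 kept genes. The log2 change of *Gata3* was -0.81, which corresponds to a ratio of FPKM of 1.76 in favour of Lgr5+ cells, and 16.4% of the kept genes had a change at or below it. The size of the difference depended on the scaling. It was -0.55, under the 1.5-fold threshold, when both populations were scaled to the same FPKM sum, and 0.11, in the opposite direction, when they were scaled to a list of epithelial genes.

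*Gata2* had an FPKM of 52.4 in Lgr5+ cells and 11.0 in Lgr6+ cells. Its rank among the kept genes was 1880 in Lgr5+ cells and 6332 in Lgr6+ cells. The log2 change of -2.16 was the largest in size among the members, and 1.41% of the kept genes had a change at or below it. The change stayed past 1.5-fold toward Lgr5+ cells in all 9 alternatives that were tried, and ranged from -2.26 to -1.29 among them.

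*Gata6* was listed at 0 in Lgr5+ cells and had an FPKM of 0.237 in Lgr6+ cells, below the limit for kept genes in both. In the table it lies on chromosome 18 from 11042037 to 11085635, whereas its interval in the RefSeq annotation of GRCm38.p6 begins at 11052510. No ratio is given against a value listed at 0, which can also be a failed estimate. In the table the interval of *Gata6* is the same as that of 1010001N08Rik, which was listed at 0 and 0.0812, and counting by strand is not stated in the sources used here, so reads of the overlapping genes cannot be told apart. The remaining Gata genes, *Gata1* of the erythroid lineage and *Gata4* and *Gata5* of the heart and endoderm, were listed at 0 in both populations. *Gata3* therefore made up 84.01% of the summed FPKM of the 6 Gata genes in Lgr5+ cells and 93.3% in Lgr6+ cells, while *Gata2* made up 15.99% and 6.54%. The sum itself was 328 in Lgr5+ cells and 168 in Lgr6+ cells.

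The positions in the table are those of mouse build GRCm38, since 98.8% of the 22500 intervals whose symbol is also in the RefSeq annotation of GRCm38.p6 overlapped the gene there. *Gata2* lies on chromosome 6 from 88198664 to 88207032 in the table, whereas its RefSeq interval begins at 88193891, which is 4773 bases further upstream. RefSeq annotates a promoter at each of these starts, so the interval of the table begins at the downstream start and leaves out the upstream first exon. *Gata3*, on the minus strand of chromosome 2, lies from 9857078 to 9878600, and RefSeq extends it further upstream, to 9887953. Whether fragments from an upstream first exon entered the FPKM of either gene cannot be read from the table.

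The windows around annotated starts of *Gata2* and *Gata3* are shown because these are the members past 1.5-fold and because the starts differ between the table and RefSeq. For *Gata3* the window is that of the start at 9878600, where the interval of the table ends. No window was used for its upstream RefSeq limit at 9887953. Each runs from 250 bases before to 50 bases after the start, 5′ to 3′ on the strand of the gene, and was taken from RefSeq on GRCm38.p6. Capitals mark GATA motifs, which were searched as AGATAA and also as AGATAG, and with a first T as TGATAA and also as TGATAG, and CCAAT boxes, which were searched as CCAAT, on both strands; the motifs do not overlap one another here. The upstream *Gata2* window lies at chr6:88193641-88193940 on the plus strand, the downstream one at chr6:88198414-88198713 on the plus strand, and the *Gata3* window at chr2:9878551-9878850 on the minus strand.
*Gata2* upstream start: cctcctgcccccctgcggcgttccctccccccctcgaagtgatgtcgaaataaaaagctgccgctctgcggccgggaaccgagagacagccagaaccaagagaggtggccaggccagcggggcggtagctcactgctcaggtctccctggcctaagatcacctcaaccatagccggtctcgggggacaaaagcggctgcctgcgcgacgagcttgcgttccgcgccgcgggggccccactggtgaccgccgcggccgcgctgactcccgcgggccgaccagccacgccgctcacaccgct
*Gata2* downstream start: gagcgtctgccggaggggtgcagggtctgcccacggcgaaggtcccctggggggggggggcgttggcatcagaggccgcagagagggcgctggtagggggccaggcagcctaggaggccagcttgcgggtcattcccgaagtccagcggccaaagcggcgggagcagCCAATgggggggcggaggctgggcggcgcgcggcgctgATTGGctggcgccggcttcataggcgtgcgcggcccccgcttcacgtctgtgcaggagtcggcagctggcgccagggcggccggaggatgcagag
*Gata3* start: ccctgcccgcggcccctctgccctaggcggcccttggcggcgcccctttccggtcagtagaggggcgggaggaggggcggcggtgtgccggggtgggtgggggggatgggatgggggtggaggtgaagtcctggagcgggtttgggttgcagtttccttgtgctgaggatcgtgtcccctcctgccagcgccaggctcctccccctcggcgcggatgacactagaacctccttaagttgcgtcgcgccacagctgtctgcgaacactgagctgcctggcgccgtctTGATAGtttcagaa

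The downstream *Gata2* window, where the interval of the table begins, held 2 CCAAT boxes, the first base of which lay at -83 and -45 relative to the start, and the latter was on the opposite strand. The upstream *Gata2* window held 0 CCAAT boxes. A GATA motif was found once in these windows, as TGATAG from base 37 after the *Gata3* start. Over all 32851 promoter windows of this length, 29.8% held a GATA motif and 37.4% held a CCAAT box. The *Gata2* windows had a GC content of 69.3% and 73.7% and the *Gata3* window 67.3%, against a median of 52.7% over all windows, and they held 32, 29 and 22 CpG dinucleotides against a median of 7. RefSeq windows were used for 4 of the 7 members. For *Eya1* and *Eya2* no window was available, and windows on chromosome 18, where *Gata6* lies, were left out of the search among members. The windows of *Eya3* and *Eya4*, which were not past 1.5-fold, held neither a GATA motif nor a CCAAT box. Their GC content was 59.3% for *Eya3* and 69.3% and 64.0% for the pair of *Eya4* starts. Matches of this kind describe the letters in the window and no binding was measured.

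*Eya1* was the highest Eya gene in both populations. Its FPKM was 45.4 in Lgr5+ cells and 43.5 in Lgr6+ cells, a log2 change of -0.06, and its rank among the kept genes was 2125 and 2143. Its log2 change was 0.20 with both populations scaled to the same sum and 0.85 relative to the epithelial genes, both toward Lgr6+ cells. *Eya1* lies on chromosome 1 from 14168958 to 14310199.

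*Eya4* lies on chromosome 10 from 23104168 to 23349903. Its level was 23.3 in Lgr5+ cells and 15.9 in Lgr6+ cells. The log2 change was -0.52, just under the threshold of 0.58 in size. It was under the threshold in each of the 9 alternatives, of which the changed filters and the 2-fold threshold cannot alter the value. With the scaling to epithelial genes the value of *Eya4* was 0.36, so its direction was reversed there. *Eya2*, on chromosome 2 from 165595028 to 165771727, was the only kept member with a higher value in Lgr6+ cells as deposited. Its FPKM was 8.11 in Lgr5+ cells and 10.8 in Lgr6+ cells, a log2 change of 0.38. It reached 0.63, past 1.5-fold, when both populations were scaled to the same sum, and 1.24 when they were scaled to the epithelial genes.

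*Eya3* was the lowest Eya gene in both populations, and lies on chromosome 4 from 132639046 to 132724765. The FPKM was 1.70 in Lgr5+ cells and 1.06 in Lgr6+ cells, close to the lower limit for kept genes. The log2 change of *Eya3* was -0.39 with the added 1, and -0.69 as a plain log2 ratio of FPKM, which is past 1.5-fold. With the scaling to epithelial genes it was 0.15, in the opposite direction. Of the summed Eya FPKM, which was 78.5 in Lgr5+ cells and 71.3 in Lgr6+ cells, *Eya1* made up 57.9% and 61.02%, *Eya4* 29.6% and 22.3%, *Eya2* 10.3% and 15.2%, and *Eya3* 2.17% and 1.48%.

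**Figure D2:**
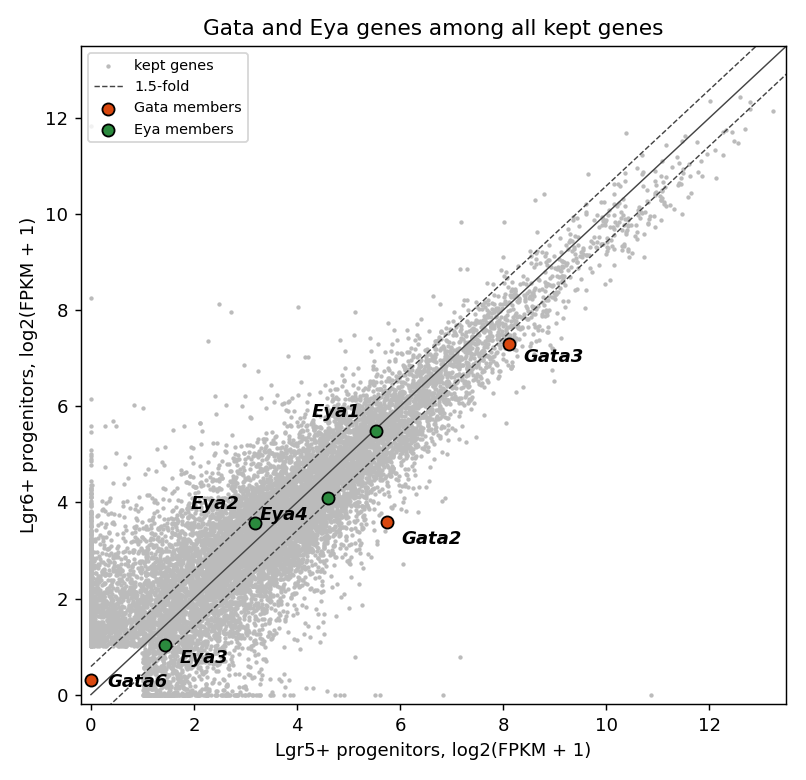
Expression in Lgr6+ cells against Lgr5+ cells, both as log2(FPKM + 1), for the 13436 kept genes (grey) and the 7 members (orange, Gata; green, Eya), with *Gata6* shown although it was not kept. *Gata2* lies farthest below the lower dashed 1.5-fold line, *Gata3* just below it and the 4 Eya genes between the dashed lines.

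FPKM is per length, so levels of different members can be set side by side within a population, and a ratio of 2 genes within a population is unchanged by any scaling factor. In Lgr5+ cells the order from high to low was *Gata3*, *Gata2*, *Eya1*, *Eya4*, *Eya2*, *Eya3* and *Gata6*. In Lgr6+ cells it was *Gata3*, *Eya1*, *Eya4*, *Gata2*, *Eya2*, *Eya3* and *Gata6*, so *Gata2* alone changed its place relative to the others. The smallest gaps between neighbours were a ratio of 1.15 between *Gata2* and *Eya1* in Lgr5+ cells and of 1.02 between *Gata2* and *Eya2* in Lgr6+ cells, and without a spread over libraries it cannot be said which neighbours in the order differ. *Gata3* was 5.25 times *Gata2* in Lgr5+ cells and 14.3 times *Gata2* in Lgr6+ cells. *Eya1* was 0.866 times *Gata2* in Lgr5+ cells and 3.96 times *Gata2* in Lgr6+ cells. *Gata3* was 6.06 times *Eya1* in Lgr5+ cells and 3.60 times *Eya1* in Lgr6+ cells.

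The DNA-binding partners of the Eya proteins are the Six-family proteins. *Six2* had an FPKM of 76.8 in Lgr5+ cells and 54.4 in Lgr6+ cells. Its log2 change was -0.49, under the threshold, and was 0.42 relative to the epithelial genes. *Eya1* was 0.592 times *Six2* in Lgr5+ cells and 0.799 times *Six2* in Lgr6+ cells. *Six4* and *Six5* were lower, with an FPKM of 1.66 and 5.03 in Lgr5+ cells and 3.01 and 8.96 in Lgr6+ cells. The log2 changes of *Six4* and *Six5*, 0.59 and 0.72, were past 1.5-fold toward Lgr6+ cells. After quantile normalization *Six4* was 0.30, under the threshold, and *Six5* was 0.59, still past it. *Six3* had 0.0371 and 0.0341, and *Six6* was listed at 0 in both.

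Of the corepressors of the network, *Dach1* had an FPKM of 13.3 in Lgr5+ cells and 14.4 in Lgr6+ cells, whereas *Dach2* had 2.17 and 0.188, a log2 change of -1.42, which was -1.23 relative to the epithelial genes. *Dach2* was kept through its Lgr5+ value alone, so its direction was fixed by the filter. *Ski* and *Skil*, which are related to the Dach genes, had log2 changes of -0.17 and -0.11. *Pax2*, a marker of the otic placode, had an FPKM of 4.81 and 2.95, a log2 change of -0.56 that was 0.18 relative to the epithelial genes, and *Pax8* was listed at 0 in both. Of the list of 12 Six-family, Dach and Pax genes 9 were kept, of which 1 was past 1.5-fold toward Lgr5+ cells and 2 toward Lgr6+ cells. Their median log2 change was -0.17, and was 0.07 with both populations scaled to the same sum and 0.65 with the scaling to epithelial genes.

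Among 10 cofactors and partners of Gata proteins, 9 were kept, 2 of them past 1.5-fold toward Lgr5+ cells and 2 toward Lgr6+ cells, with a median log2 change of -0.41. *Zfpm1*, which encodes the Gata cofactor Fog1, had an FPKM of 19.5 in Lgr5+ cells and 16.3 in Lgr6+ cells. *Ldb1* and *Lmo4*, a LIM-domain binding protein and a LIM-only protein, were the highest of the list, with an FPKM of 108.5 and 121 in Lgr5+ cells and 74.9 and 90.4 in Lgr6+ cells. *Lmo2* and *Lyl1*, which act with Gata factors in blood and endothelial cells, had an FPKM of 0.204 and 0.214 in Lgr5+ cells and 13.2 and 4.65 in Lgr6+ cells. Both were kept through the Lgr6+ value alone, so their direction, opposite to that of *Gata2*, was fixed by the filter. *Tal1*, another blood and endothelial factor, had an FPKM of 1.42 and 1.13. The genes of this list past 1.5-fold toward Lgr5+ cells were *Tcf3*, with a log2 change of -0.60 that was 0.31 relative to the epithelial genes, and *Runx1*, with an FPKM of 1.05 in Lgr5+ cells and 0.00642 in Lgr6+ cells. *Runx1* was kept through its Lgr5+ value alone, so its direction was fixed as well. With the scaling to epithelial genes the counts of this list were 1 toward Lgr5+ cells and 3 toward Lgr6+ cells, and its median log2 change was 0.38. Over all kept genes that scaling gave 7.14% toward Lgr5+ cells, 63.2% toward Lgr6+ cells and a median of 0.89.

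Other regulators of otic development were counted as a list of 23 genes, of which 14 were kept. Of these, 6 were past 1.5-fold toward Lgr5+ cells and 3 toward Lgr6+ cells, and the median log2 change was -0.46. Among the former were *Sox2*, *Jag1*, *Isl1*, *Lmx1a* and *Otx2*, with log2 changes of -1.33, -0.85, -0.99, -1.59 and -2.15. *Otx2*, with an FPKM of 0.445 in Lgr6+ cells, was kept through its Lgr5+ value alone, so its direction was fixed by the filter. *Sox2* and *Jag1* mark the prosensory domain, *Isl1* is a LIM-homeodomain factor of prosensory cells, and *Lmx1a* marks nonsensory epithelium. The latter were *Tbx1* and the HC factors *Pou4f3* and *Gfi1*, with log2 changes of 1.41, 0.64 and 1.46. With the scaling to epithelial genes the counts of this list were 2 and 5, *Jag1* was among the genes that changed direction, and the median was 0.38. That scaling put 7.14% of all kept genes past 1.5-fold toward Lgr5+ cells and 63.2% toward Lgr6+ cells, with a median of 0.89.

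**Figure D3:**
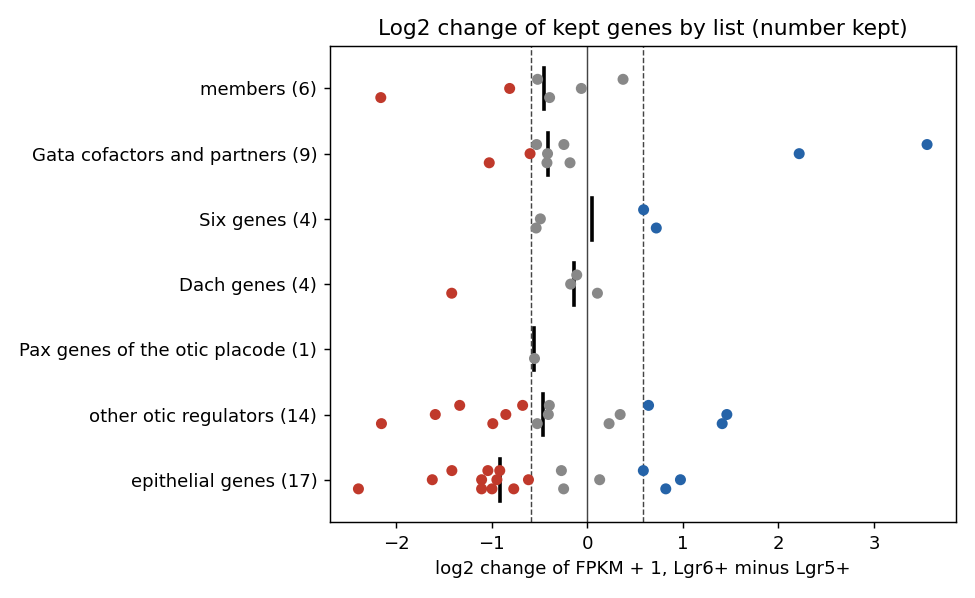
Log2 change of FPKM + 1, Lgr6+ minus Lgr5+, for each kept gene of the members and of 6 gene lists, with black bars at the medians, dashed lines at 1.5-fold, red points past it toward Lgr5+ cells and blue points past it toward Lgr6+ cells. As deposited the members have a median of -0.46, between that of the epithelial genes at -0.91 and that of the Six-family genes at 0.05. With the scaling to epithelial genes the medians are 0.26 for the members, 0 for the epithelial genes and 0.88 for the Six-family genes.

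The cells in each sort were read from other genes of the table. All 10 supporting cell markers were kept, with a median log2 change of -0.29 and 2 past 1.5-fold toward each population. Of 17 kept epithelial genes 11 were past 1.5-fold toward Lgr5+ cells and 3 toward Lgr6+ cells. The summed FPKM of all 18 epithelial genes was 1731 in Lgr5+ cells and 1127 in Lgr6+ cells. The summed FPKM was 3.88 and 263.5 for 10 macrophage markers, 34.1 and 177 for 9 endothelial markers, 73.3 and 214 for 7 Schwann cell markers, 904 and 1198 for 10 HC markers, and 330 and 355 for 9 mesenchyme markers. It was 105 and 152 for 9 neuron markers and 0.507 and 3.85 for 5 melanocyte markers, of which *Mlana* and *Tyrp1* were at 0 in both. The 8 markers of the pillar and Deiters cell list summed to 1741 and 2107, of which *Npy* alone gave 257.7 and 909.5. Their median log2 change was -0.02, with 2 of them past 1.5-fold toward each population. Past 1.5-fold toward Lgr6+ cells were 8 of 10 macrophage markers, 7 of 10 HC markers and 3 of 7 Schwann cell markers, with 0 toward Lgr5+ cells. For the 9 mesenchyme markers and the 9 neuron markers, 4 were past it toward Lgr6+ cells and 1 toward Lgr5+ cells in each list. Any marker kept with an FPKM below 1 in Lgr5+ cells passed through its Lgr6+ value alone, so its direction was fixed. Macrophage markers listed at 0 in Lgr5+ cells were *C1qb*, *C1qc*, *Tyrobp*, *Csf1r*, *Aif1* and *Ptprc*. The part of these cells in the differences of the members was not tested, and in sorted bulk RNA fewer cells of a type and less RNA per cell cannot be told apart.

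*Gata2* is also active in mast cells, blood progenitors and endothelium. Of 8 mast cell markers, *Cpa3*, *Mcpt4*, *Tpsb2*, *Fcer1a* and *Ms4a2* were listed at 0 in both populations, and *Cma1* was at 0 in Lgr5+ cells. The mast cell list summed to an FPKM of 8.60 in Lgr5+ cells and 15.7 in Lgr6+ cells. *Kit* had an FPKM of 6.07 and 15.3 and *Hdc* 2.53 and 0.298, in Lgr5+ and Lgr6+ cells respectively. The endothelial list, 8 of whose 9 genes were past 1.5-fold toward Lgr6+ cells, lay on the opposite side from *Gata2*. The erythroid list lay on the same side, with a summed FPKM of 488 in Lgr5+ cells and 109 in Lgr6+ cells, nearly all of it from the globin genes *Hbb-bs*, *Hbb-bt* and *Hba-a1*. The erythroid regulators *Gata1* and *Klf1* were at 0 and 0.0959 in Lgr5+ cells and at 0 and 1.30 in Lgr6+ cells, where *Slc4a1* was at 0. The part of erythroid RNA in the *Gata2* value was not tested.

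The genes with values most like those of a member were found by the distance in the 2 values of log2(FPKM + 1), which is a likeness over 2 populations only. For *Gata2* the nearest were *Nme4*, *Wtip* and *Chsy1*, at distances of 0.19, 0.21 and 0.22, and 25 genes lay within 0.5. The FPKM of *Nme4* was 51.3 in Lgr5+ cells and 9.52 in Lgr6+ cells. For *Gata3* they were *Ergic3*, *Bex1* and *Mrps28*, at distances of 0.06, 0.10 and 0.11, and 108 genes lay within 0.5. The FPKM of *Ergic3* was 279.8 in Lgr5+ cells and 162.7 in Lgr6+ cells.

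**Figure D4:**
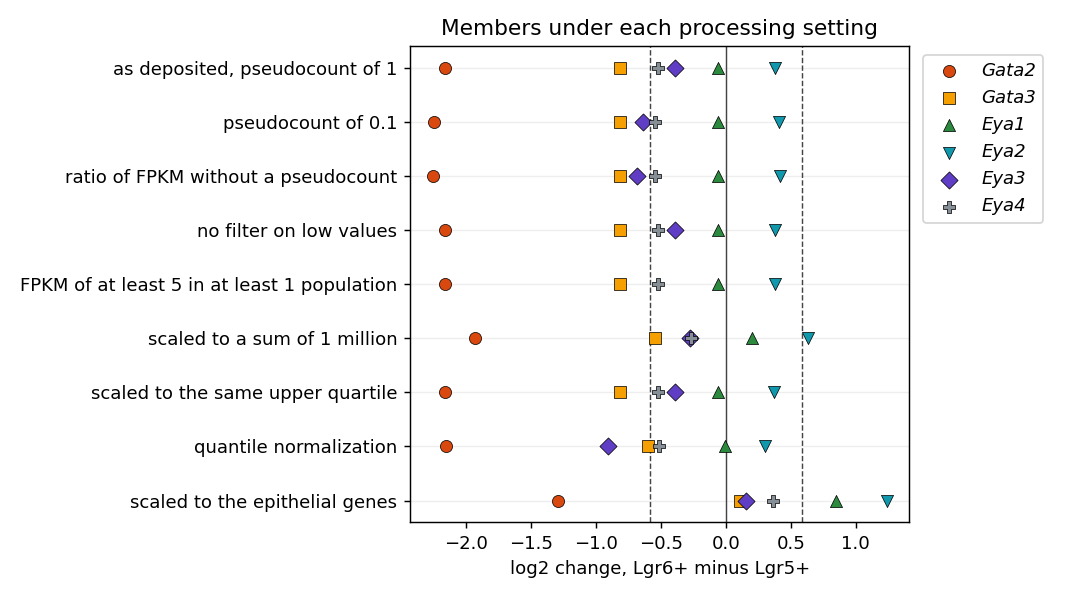
Log2 change, Lgr6+ minus Lgr5+, of the 6 kept members as deposited and under each alternative other than the 2-fold threshold, with dashed lines at 1.5-fold. *Gata2* stays left of the dashed line at every setting, from -2.26 to -1.29, whereas *Gata3* ranges from -0.81 to 0.11 and *Eya1* from -0.06 to 0.85.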

How the data were processed

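RNA-Seq of sorted Lgr5+ and Lgr6+ cochlear progenitors was analysed from the table deposited by the authors, which holds 1 combined FPKM value per gene and population. The authors made cDNA with a SMART-Seq kit for low input, trimmed reads with Trimmomatic, mapped them with TopHat, used RefGene annotation and calculated FPKM with Cufflinks, in versions not given in the sources used here. The paper's methods name mm9 and the submitters' processing notes mm10, and the positions were read as GRCm38. The 3 columns of the authors' own comparison hold a log2 fold change, a p-value and a q-value and were not used.

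Samples were grouped by title into 2 libraries per population, and no value of a single library was used. The log2 change was taken on log2(FPKM + 1) for genes that reached an FPKM of 1 in either population, and genes were counted past 1.5-fold, with no test. The computation of changes and counts was checked on simulated data, which does not bear on the spread between replicates. The 9 alternatives were a pseudocount of 0.1, no pseudocount, no filter, a minimum FPKM of 5, a common FPKM sum, a common upper quartile, quantile normalization, scaling to the median ratio of 17 epithelial genes, and 2-fold. Named genes were the members, fixed lists of Gata partners, Six-family, Dach, Pax and otic genes, marker lists, and the 3 nearest genes of each member past 1.5-fold. Members and lists were chosen with earlier results of these data known. Promoter sequences were taken from RefSeq. Some genes of the lists are counted but not reported by name here.

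Read counts were not analysed here, and the table does not give the depth behind a combined value, so no interval is given. Low FPKM values fell on steps, read from genes with 1 annotated transcript and a length reduced by 200 bases, whose size differed 3.24-fold between the populations, with the finer steps in Lgr6+ cells. Python 3.11.15, numpy 2.4.6, pandas 2.3.3 and matplotlib 3.10.9 were used.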

Additional observations from a re-analysis of the deposited data

How the results depend on the processing

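Scaling both populations to the same FPKM sum added 0.26 to every log2 ratio and scaling to the epithelial genes added 0.92, which moved the median of all kept genes by 0.24 and 0.85. With the common sum, *Gata3* was -0.55, under the threshold, *Eya2* was 0.63, past it, and 1 member was counted toward each population. With the epithelial genes, *Gata3* was 0.11 and *Eya1* 0.85, both in the opposite direction, *Eya2* was 1.24, the counts of members were 1 toward Lgr5+ and 2 toward Lgr6+ cells, and those of all kept genes 959 and 8493. *Eya3* passed 1.5-fold with a pseudocount of 0.1 at -0.64, without a pseudocount at -0.69 and after quantile normalization at -0.91, and was 0.15, in the opposite direction, with the epithelial genes, as was the median of the kept members at 0.26. At 2-fold, *Gata3*, at -0.81, did not pass and 1 member remained toward Lgr5+ cells, with 1575 and 2443 of all kept genes. With a minimum FPKM of 5, 2415 kept genes were counted toward Lgr6+ cells and *Eya3* was not kept. The share of counted genes higher in Lgr6+ cells was 54.96% as deposited, 69.01% with the common sum and 89.9% with the epithelial genes. *Gata2* and *Eya4* kept their side of the threshold in all 9 alternatives, although no filter, a minimum FPKM of 5 and 2-fold cannot alter the value of a gene.

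No paired analysis was possible because the table holds 1 combined value per population, and for the same reason the planned fits without a library were not run. Read as steps of the low values, the *Gata6* value in Lgr6+ cells was 17.9 steps of its 3194-base transcript, and 3 steps equal an FPKM of 0.129 in Lgr5+ cells, where it was listed at 0. Whether a step is 1 fragment is not known.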
